A study of Homo sapiens with 8 samples.

Results

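The genes described here encode the machinery that starts RNA polymerase II (Pol II) transcription. They were chosen by symbol among protein-coding genes of GENCODE on chromosomes 1 to 22 and X: POLR2 plus a letter, TBP, TAF plus a number, GTF2 plus a letter, or MED plus a number. The rule found 85 of 19962 symbols. It also takes in TAF15, GTF2I and the SL1 subunits of the Pol I system, whose names follow the same pattern. Chromatin immunoprecipitation with sequencing (ChIP-seq) was used to map Sp1 and CTCF in U-2 OS, a human osteosarcoma line, after crosslinking with formaldehyde for 6 min. A line carrying an endogenous V5-Halo-SP1 knock-in was used with antibody 1 and antibody 2 against Sp1, both from rabbit and each in 1 library, and with normal rabbit IgG. Clone C32, an endogenous FLAG-Halo-CTCF knock-in, gave 2 replicate CTCF libraries. The sample titles name the Sp1 line as parental, and the series description names wild-type cells for CTCF where the sample labels name clone C32. Sp1 and CTCF were therefore mapped in different lines, each with a tagged protein, and target and line cannot be told apart.

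The deposited data used here were peak lists, 1 per library, without read counts or depth. A gene was scored in a list when a peak summit lay within 1 kb of any of its annotated transcript starts, which is called a promoter peak below. Where a gene had several, the one with the highest fold enrichment was taken. Fold enrichment is the ratio over control at a peak that the authors' peak caller gave. It comes from single libraries, so a fold has no replicate error within an Sp1 antibody, and no p-value was computed between lists. Intervals are 95% Wilson intervals of shares and cover counting error only. Genes of a family are not replicates of one another.

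Pol II cannot find a promoter unaided. TFIID, made of TBP and its associated factors (TAFs), recognises the promoter, and TFIIA, TFIIB, TFIIE, TFIIF and TFIIH complete the pre-initiation complex in which TFIIH opens the DNA. Mediator bridges transcription factors and this complex, with head, middle and tail modules joined by the MED14 scaffold and a detachable kinase module. Sp1 binds GC boxes through its zinc fingers. Its glutamine-rich regions contact TFIID subunits, and a Mediator form was first purified as the cofactor required for Sp1 activation (CRSP). CTCF is a zinc finger protein with a long recognition sequence that is best known for its part in chromatin loops. Promoter peaks of both proteins at the genes for this machinery, which include partners of Sp1, were examined.

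Antibody 1 had promoter peaks at 60 of the 85 genes (70.6%, interval 60.2% to 79.2%), where the share of all protein-coding genes was 37.5%. Antibody 2 had them at 45 genes (52.9%, 42.4% to 63.2%), beside 24.2% of all genes. Both antibodies marked 39 genes (45.9%, 35.7% to 56.4%) beside 21.2%, and either antibody marked 66 genes (77.6%) beside 40.4%. The gene family was thus listed more often than coding genes as a whole in each Sp1 list, and the intervals lay above the background share.

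CTCF replicate 1 had promoter peaks at 40 genes (47.1%) and replicate 2 at 32 (37.6%), beside 32.5% and 24.9% of all genes. The 32 genes of replicate 2 were all listed in replicate 1 as well, so both replicates shared 32 genes (37.6%, 28.1% to 48.3%) beside 24.3%. Both antibodies and both CTCF replicates marked 15 genes (17.6%, 11.0% to 27.1%) beside 6.7%. No list had a peak at 12 genes (14.1%), where 43.8% of all genes had none. The IgG list, which held 106 peaks in all, had a promoter summit at 0 of the 85 genes and at 5 of the 19962.

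The 15 genes marked in all 4 Sp1 and CTCF lists were POLR2A, POLR2H, POLR2J2, POLR2J3, TAF7, TAF12, TAF1B, TAF1D, GTF2H2, GTF2H2C, GTF2I, MED15, MED17, MED20 and MED23. They were spread over Pol II, TFIID, SL1, TFIIH and the Mediator head and tail, and no gene of the Mediator middle or kinase module was among them. With only canonical transcript starts counted, both CTCF replicates marked 21 of the 85 genes (24.7%) instead of 32, beside 15.6% of all genes. The Sp1 counts were 60 and 44 genes in that setting, so alternative starts carried more of the CTCF count than of the Sp1 count.

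**Figure D1:**
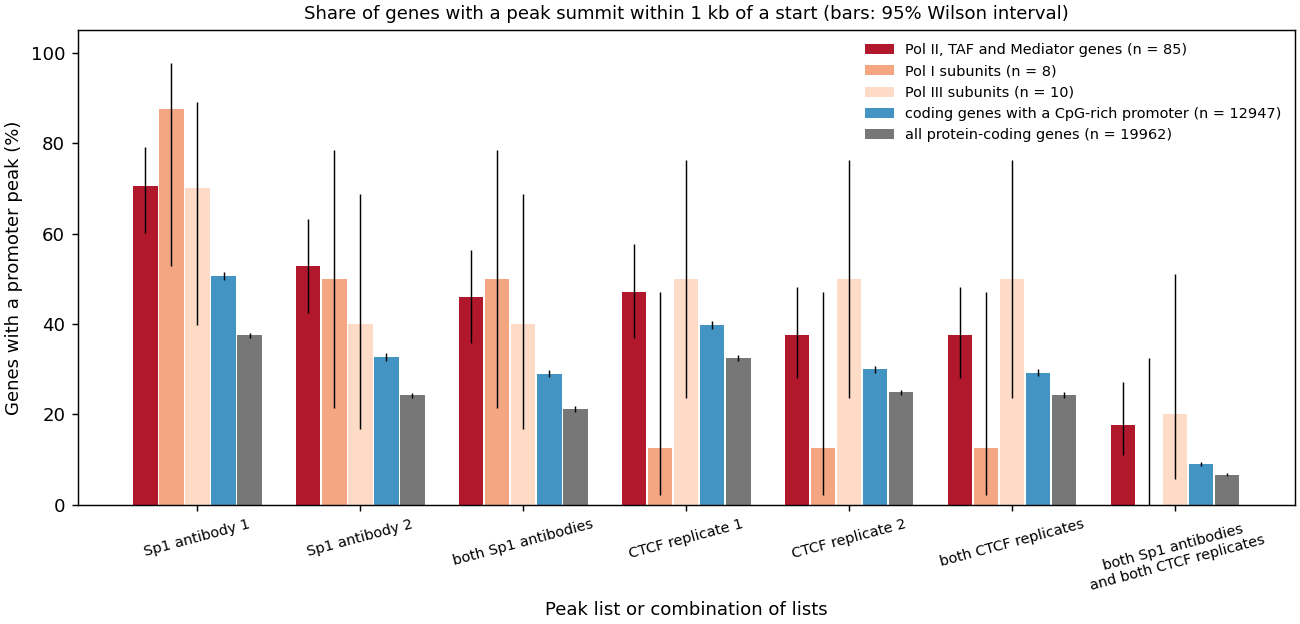
Percentage of genes (vertical axis) with a promoter peak in each list or combination of lists (horizontal axis), for the 85 genes, Pol I and Pol III subunits, coding genes with a CpG-rich promoter and all coding genes; error bars are 95% Wilson intervals. The red bar of the 85 genes stands above the grey bar of all coding genes in every group, with 70.6% against 37.5% for antibody 1.

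Promoter makeup differed between the family and coding genes as a whole. Within 500 bp of the canonical start, 79 of the 85 genes (92.9%) had at least 50% GC and an observed to expected CpG ratio of at least 0.6, beside 64.9% of all coding genes. Among all coding genes with such a CpG-rich promoter, antibody 1 marked 50.6%, both antibodies marked 29.0% and both CTCF replicates marked 29.2%. The 79 CpG-rich genes of the family had 73.4% (62.8% to 81.9%), 46.8% (36.2% to 57.7%) and 40.5% (30.4% to 51.5%) in the same order. The Sp1 intervals thus lay above the CpG-rich background as well, while the lower bound for CTCF was close to it.

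Shared start regions were also frequent. A start of another coding gene on the opposite strand lay within 1 kb for 30 of the 85 genes (35.3%), beside 17.8% of all coding genes. Both antibodies marked 20 of these 30 genes (66.7%, 48.8% to 80.8%) and 19 of the other 55 (34.5%, 23.4% to 47.7%). The share was 45.2% over coding genes with such a start and 21.2% over all coding genes, with or without one. The interval of the 55 genes lay above the 21.2%. Both CTCF replicates marked 9 of the 30 (30.0%), close to the 28.9% of all coding genes with such a start. They marked 23 of the 55 (41.8%), beside 24.3% of all coding genes, and the intervals of the 30 and the 55 overlapped. A peak between 2 such starts cannot be assigned to 1 gene of the pair, and the part of promoter makeup and shared starts in the counts was not tested.

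Most POLR2 symbols stand for subunits of Pol II itself, and POLR2J2 and POLR2J3 are near-identical copies of POLR2J. Antibody 1 marked 13 of the 15 POLR2 genes (86.7%, 62.1% to 96.3%), beside 37.5% of all coding genes. Antibody 2 marked 8 (53.3%, 30.1% to 75.2%), beside 24.2%, and both CTCF replicates marked 7 (46.7%, 24.8% to 69.9%), beside 24.3%. POLR2J, POLR2J2 and POLR2J3 were all among the 13 and among the 7. POLR2A, the largest subunit, which carries the C-terminal repeat domain, had a fold of 17.5 with antibody 1, 6.54 with antibody 2, 3.11 in CTCF replicate 1 and 3.29 in replicate 2. Its start region faces ZBTB4, which lay within 1 kb of the same peaks. POLR2A was thus well enriched with antibody 1 and had 1 of the lowest CTCF folds of the family.

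The other POLR2 genes fell into distinct patterns. POLR2C, the subunit that pairs with POLR2J at an early step of Pol II assembly, had folds of 218 and 94.6 for CTCF but 4.71 with antibody 1 and no antibody 2 peak. POLR2J had 212 and 82.9 for CTCF and 26.3 with antibody 1, again without antibody 2. POLR2I, a small subunit of the Pol II jaw, had 18.1 and 8.01 with the antibodies and no CTCF peak. The genes of an assembly pair were thus both among the strongest CTCF promoters of the family. POLR2G and POLR2K had both antibodies and no CTCF, at 9.42 and 11.7 and at 4.17 and 3.32, and POLR2H had 5.64, 4.88, 20.8 and 10.9 in the 4 lists. POLR2D had 6.89 with antibody 1 and 58.9 and 23.3 for CTCF, with summits of both proteins between −121 and −134 bp from a start, and POLR2E had 11.7 with antibody 1 only. POLR2L and POLR2M had no promoter peak in any list. For POLR2L the nearest summits lay beyond the 1 kb limit, at 1765 bp with antibody 1, 1631 bp with antibody 2 and 2145 and 2095 bp for CTCF.

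Among the 14 TFIID genes, each antibody marked 10 (71.4%, 45.4% to 88.3%), beside 37.5% and 24.2% of all coding genes, and both marked 8 (57.1%, 32.6% to 78.6%), beside 21.2%. TBP, the TATA-binding subunit, had 6.45 with antibody 1 and 5.73 with antibody 2, without a CTCF peak, in a start region shared with PSMB1. TAF6, a histone-fold subunit, had 26.0 and 4.72 with the antibodies, the widest difference in favour of antibody 1 in the family. TAF12, another histone-fold subunit, had 5.63 and 15.6 with the antibodies and 24.1 and 7.91 for CTCF. TAF1, the subunit with bromodomains that touches the promoter downstream of the start, had 6.04 and 6.4 with the antibodies, and TAF3, TAF8 and TAF11 had 7.96 and 5.50, 10.9 and 5.24, and 12.6 and 6.17. These folds were all below that of TAF6 with antibody 1, and none of the 4 genes had a peak in both CTCF replicates. Both CTCF replicates marked TAF2, TAF4, TAF7, TAF10 and TAF12 (35.7%, 16.3% to 61.2%), beside 24.3%, and with canonical starts only TAF7, TAF10 and TAF12. All 14 TFIID genes had a promoter peak in at least 1 list, where 43.8% of all coding genes had none. TAF2 and TAF4 were listed for CTCF only, with their strongest summits at alternative starts.

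Sp1 has been described as contacting TFIID through TAF4, its paralog TAF4B and TAF7. TAF7, which also restrains the enzymatic activity of TAF1, had 11.3 and 3.78 with the antibodies and 72.9 and 43.1 for CTCF. TAF4 had no Sp1 peak and CTCF folds of 19.6 and 7.87, with summits at −861 and −905 bp from the nearest start, upstream being negative. TAF4B had none in any list. The 4 TFIID paralogs TAF1L, TAF4B, TAF7L and TAF9B, of which several act mainly in germ cells, had 0 Sp1 promoter peaks, and TAF7L had CTCF folds of 50.1 and 25.0. Sp1 peaks were thus listed at 1 of the 3 contact genes (33.3%, 6.15% to 79.2%), and the interval holds the 40.4% of all coding genes marked by either antibody.

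The TAF symbols also cover proteins outside TFIID. TAF6L, a subunit of the SAGA coactivator, had 14.6 and 7.88 with the antibodies, and the SAGA gene TAF5L had no peak. TAF15, an RNA-binding protein of the FET family, had 10.3 with antibody 1 and 63.2 and 30.0 for CTCF. Among the SL1 genes, TAF1B had 7.50, 7.10, 12.3 and 4.02 in the 4 lists, with all 4 summits between −24 and −3 bp from a start. TAF1A had 3.93 with antibody 2 only. GTF2I, a DNA-binding factor whose name follows the same pattern, had 8.05, 7.61, 6.77 and 3.89.

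The general factors beyond TFIID differed among themselves. GTF2B, the single-subunit TFIIB that positions Pol II, had 5.47 with antibody 2 and no peak in any other list. The TFIIA genes GTF2A1 and GTF2A2 had 8.27 and 8.55 with antibody 1 only. Of the pairs that form TFIIE and TFIIF, GTF2E1 and GTF2F1 were marked by both antibodies, with 7.06 and 6.54 and with 3.79 and 4.00, whereas GTF2E2 and GTF2F2 had no peak in any list. In both pairs, 1 subunit gene was thus listed and its partner was not.

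Both antibodies marked 5 of the 6 GTF2H genes (83.3%, 43.6% to 97.0%, beside 21.2% of all coding genes), which encode part of TFIIH, the factor whose helicases open the promoter. GTF2H5 was the exception. GTF2H2 had 8.45 with antibody 1 and 106 with antibody 2, and its near copy GTF2H2C had 3.51 and 53.6. GTF2H4 had 16.8 and 82.7. GTF2H1 and GTF2H3, in start regions shared with HPS5 and EIF2B1, had 9.68 and 7.84, and 7.29 and 8.57. Antibody 2 was higher than antibody 1 at GTF2H2, GTF2H2C, GTF2H3 and GTF2H4, but GTF2H2 and GTF2H2C are near-identical copies that may share reads, and antibody 2 was the higher at 24.3% of all coding genes marked by both.

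**Figure D2:**
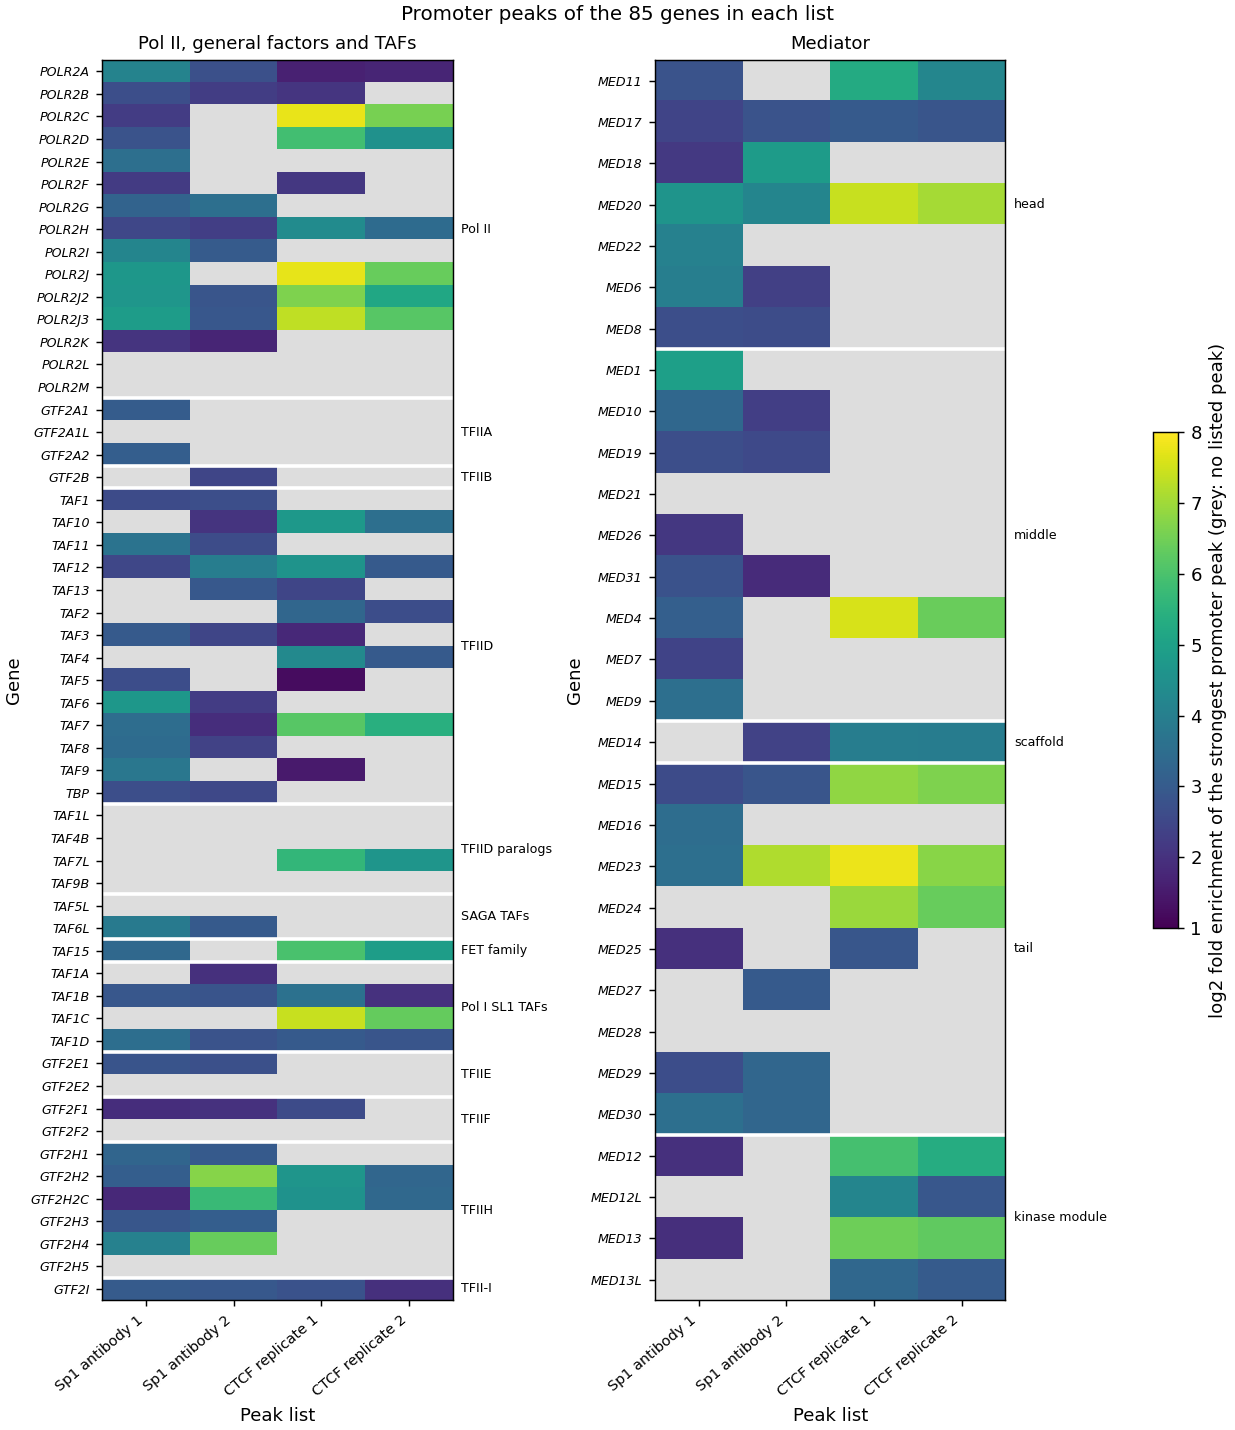
Log2 fold enrichment (colour) of the strongest promoter peak of each of the 85 genes (rows, by complex and module) in the 2 Sp1 and 2 CTCF lists (columns); grey cells have no listed promoter peak. GTF2H2, GTF2H2C and GTF2H4 are bright for antibody 2, the kinase module rows have CTCF but no antibody 2 peaks, and the middle module rows are filled mainly for antibody 1.

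Mediator contributed 30 genes. Antibody 1 marked 23 (76.7%, 59.1% to 88.2%), beside 37.5% of all coding genes, antibody 2 marked 14 (46.7%, 30.2% to 63.9%), beside 24.2%, and both CTCF replicates marked 12 (40%, 24.6% to 57.7%), beside 24.3%. The modules differed in their counts. Antibody 1 marked 7 of 7 head genes (interval 64.6% to 100.0%) and 8 of 9 middle genes (56.5% to 98.0%), whereas antibody 2 marked 5 head genes and 3 middle genes. In the kinase module, which blocks the Pol II contact of Mediator, both CTCF replicates marked MED12, MED12L, MED13 and MED13L, or 4 of 4 genes (51.0% to 100.0%), beside 24.3% of all coding genes. With canonical starts only, MED13 alone was marked by both, 1 of 4 beside 15.6%, and the tail count fell from 3 to 1, with MED23 left. Antibody 2 marked 0 of the 4 kinase module genes (0 to 49.0%), an interval that holds the 24.2% of all coding genes. CTCF folds were 61.7 and 40.1 at MED12, 88.1 and 77.7 at MED13, 18.2 and 7.41 at MED12L and 10.1 and 8.07 at MED13L, so the widely expressed genes had higher folds than their paralogs. With so few genes the intervals are wide, and they overlap between the modules for both antibodies.

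In the head module, MED20 had 24.8 and 18.3 with the antibodies and 169 and 134 for CTCF. MED20, MED23 and POLR2J3 were each among the first 10 genes of the family by combined Sp1 fold and by combined CTCF fold. MED17, the core of the head, had 5.42, 6.88, 7.91 and 7.19 in the 4 lists, the narrowest range among the 15 genes marked in all of them. MED18, the partner of MED20, had 4.50 and 28.6 with the antibodies and no CTCF peak. MED6 had 16 and 5.03, and MED8 had 6.42 and 6.14. MED11 had 6.92 with antibody 1 and 38.5 and 18.4 for CTCF. MED22 had 16.9 with antibody 1 only, at a start region shared with RPL7A, a ribosomal protein gene.

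In the middle module, MED1, the docking subunit for nuclear receptors, had 30.7 with antibody 1. That was the highest antibody 1 fold of the family, rank 310 of 7478 coding genes with such a peak, and no other list had a promoter peak there. The nearest antibody 2 summit lay 10048 bp away. MED4 had CTCF folds of 190 and 84.6 with 8.66 for antibody 1. Both antibodies marked MED10, MED19 and MED31, with 10.1 and 4.96, 6.43 and 5.85, and 6.75 and 3.66. Antibody 1 was thus the higher in all 3, and MED9 had 11.7 with antibody 1 only. MED21 had no promoter peak in any list, and its nearest Sp1 summit was 84206 bp away.

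In the tail, which receives most activator contacts, MED23 had 11.8 with antibody 1, 144 with antibody 2 and 222 and 108 for CTCF. It was first of the family in both orders, rank 27 of 4823 for antibody 2 and rank 67 of 6483 for CTCF replicate 1. Its start region is shared with ENPP3, which lay within 1 kb of the same summits. MED15 had 6.11 and 7.22 with the antibodies at 1 start and 114 and 101.3 for CTCF at another, in a region shared with KLHL22. MED24 had only CTCF peaks, with 124 and 83.1, at an alternative start and not at the canonical one. MED29, divergent to the elongation factor gene PAF1, had 6.29 and 9.93 with the antibodies, and MED30 had 11.8 and 9.87, both without CTCF. MED16 had 11.3 with antibody 1, at −852 bp from a start. MED28 had no peak in any list.

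The 8 CRSP genes differed in which lists marked them. Antibody 1 marked MED1, MED7, MED17, MED23 and MED26, of which MED7 and MED26, the subunit that recruits elongation factors, had low folds of 5.30 and 4.36. Antibody 2 marked MED14, MED17, MED23 and MED27. MED14, the scaffold, had 5.20 with antibody 2 and 15.7 and 15.4 for CTCF. MED27 had 7.96 with antibody 2 and nothing else. The antibodies thus marked 7 of the 8 genes between them (87.5%, 52.9% to 97.8%), beside 40.4% of all coding genes. This interval holds the 77.6% of the whole family and the 54.3% of CpG-rich coding genes, so the CRSP genes cannot be told from either. The antibodies shared 2, MED17 and MED23. This 25.0% (7.15% to 59.1%) was close to the 21.2% of all coding genes. It cannot be told from the 45.9% of the whole family either at this number of genes.

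The antibodies were compared at the 39 genes that both marked. Antibody 2 had the higher fold at 13 of them (33.3%), beside 24.3% of the 4231 coding genes marked by both. The median ratio of antibody 2 to antibody 1 was 0.866, beside 0.632. Antibody 2 was over 4-fold higher at 5 genes (12.8%, beside 7.11%), which were MED18, MED23, GTF2H2, GTF2H2C and GTF2H4. Antibody 1 was over 4-fold higher at TAF6 only (2.56%, beside 3.88%). The ratios ran from 0.182 to 15.3, and since each antibody was used once, antibody and library cannot be told apart.

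**Figure D3:**
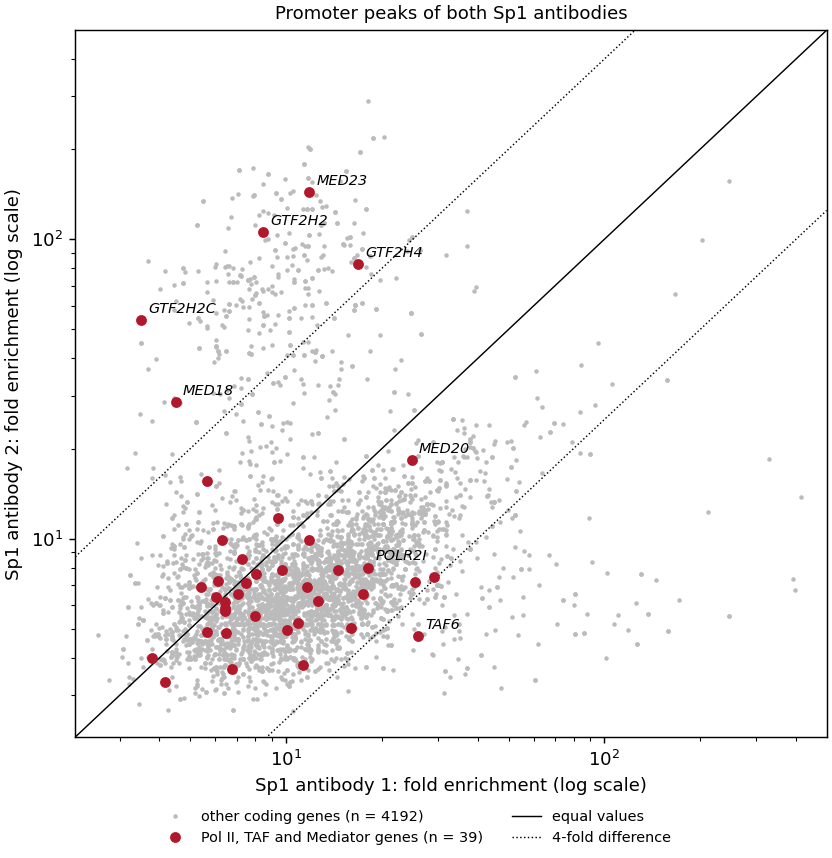
Fold enrichment with antibody 1 (horizontal, log scale) against antibody 2 (vertical, log scale) for coding genes with promoter peaks of both; red points are the 39 genes of the family, grey points all others, and dotted lines mark a 4-fold difference. Most red points lie between the dotted lines, while MED23, GTF2H2, GTF2H4, GTF2H2C and MED18 lie above the upper dotted line.

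The sequences under the antibody 2 summits of the genes with the strongest combined Sp1 folds are printed because they differ in motif content. Each runs 5′ to 3′ on the strand of the gene in hg38, and capitals mark the GC box GGGCGG, the ETS core CCGGAA or the word TCGCGAGA on either strand. They lie at chr6:131628243-131628323 (minus strand) for MED23, chr6:30907980-30908080 (plus) for GTF2H4, chr5:71067696-71067796 (minus) for GTF2H2 and chr6:41921143-41921243 (minus) for MED20. All lie outside annotated UTRs.
MED23: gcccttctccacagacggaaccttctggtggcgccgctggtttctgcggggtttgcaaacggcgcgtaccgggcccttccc
GTF2H4: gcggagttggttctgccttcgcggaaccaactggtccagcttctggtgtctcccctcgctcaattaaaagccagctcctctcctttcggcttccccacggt
GTF2H2: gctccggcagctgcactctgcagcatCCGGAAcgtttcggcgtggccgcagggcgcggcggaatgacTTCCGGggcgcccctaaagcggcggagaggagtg
MED20: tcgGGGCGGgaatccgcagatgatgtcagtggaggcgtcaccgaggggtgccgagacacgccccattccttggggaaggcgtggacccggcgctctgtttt

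The GTF2H2 window held 2 ETS cores, the MED20 window 1 GC box, and the windows of MED23 and GTF2H4 none of the 3 words. High antibody 2 folds thus occurred at windows with and without these letters. A window without a match says only that these letters are not in it.

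Antibody 1 alone marked 21 genes (24.7%, beside 16.3%) and antibody 2 alone 6 (7.06%, beside 2.97%). The highest with antibody 1 alone were MED1 (30.7), POLR2J (26.3), MED22 (16.9), TAF9 (13.7) and MED9 (11.7). Those with antibody 2 alone were MED27 (7.96), TAF13 (7.62), GTF2B (5.47), MED14 (5.20), TAF10 (4.15) and TAF1A (3.93). The genes listed with antibody 2 alone were thus all below 8-fold, whereas those with antibody 1 alone reached 30.7.

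The MED1 promoter is printed because its antibody 1 summit, the highest of the family, lay between 2 copies of the word TCGCGAGA, shown in capitals on either strand. The window spans chr17:39451286-39451386 in hg38 on the minus strand, upstream of the MED1 start and outside UTRs, and was chosen after its values had been seen.
MED1: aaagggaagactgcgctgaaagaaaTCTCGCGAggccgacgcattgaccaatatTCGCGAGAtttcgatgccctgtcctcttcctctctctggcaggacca

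This word occurred within 50 bp of the antibody 1 summit at 2 of 60 genes (3.33%), MED1 and MED22, beside 3.68% of all coding genes with an antibody 1 promoter peak. Neither gene had an antibody 2 peak. With antibody 2 it occurred at 0 of 45 genes (0 to 7.87%), beside 0.829%. Within 50 bp of canonical starts it was found at MED1, MED22 and TAF1D, or 3.53% of the 85 genes (1.21% to 9.87%), beside 0.696% of all coding genes. Of these, TAF1D had promoter peaks of both antibodies.

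CTCF folds spanned a wide range at these genes, from 2.36 to 222 in replicate 1 and from 3.29 to 134 in replicate 2. Replicate 2 was lower at 31 of the 32 shared genes, with a median ratio of 0.482 beside 0.519 over all coding genes, and POLR2A was the exception at 1.06. The first 10 genes by both replicates were MED23 (222 and 108), MED20 (169 and 134), POLR2C (218 and 94.6), POLR2J (212 and 82.9), MED4 (190 and 84.6), TAF1C (169 and 80.9), POLR2J3 (161 and 73.1), MED15 (114 and 101.3), MED24 (124 and 83.1) and MED13 (88.1 and 77.7). Of the promoter folds of all coding genes in replicate 2, the top 10.0% held 9 of the 32 genes (28.1%), and in replicate 1 it held 7 of 40 (17.5%).

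TAF1C, a subunit of SL1, the TBP complex that starts Pol I transcription, had CTCF peaks without a promoter peak of either Sp1 antibody. MED24 likewise had no Sp1 peak, and MED13, a link between the kinase module and core Mediator, had 3.81 with antibody 1. MED23, MED20, MED15 and POLR2J3 carried both Sp1 antibodies in addition.

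**Figure D4:**
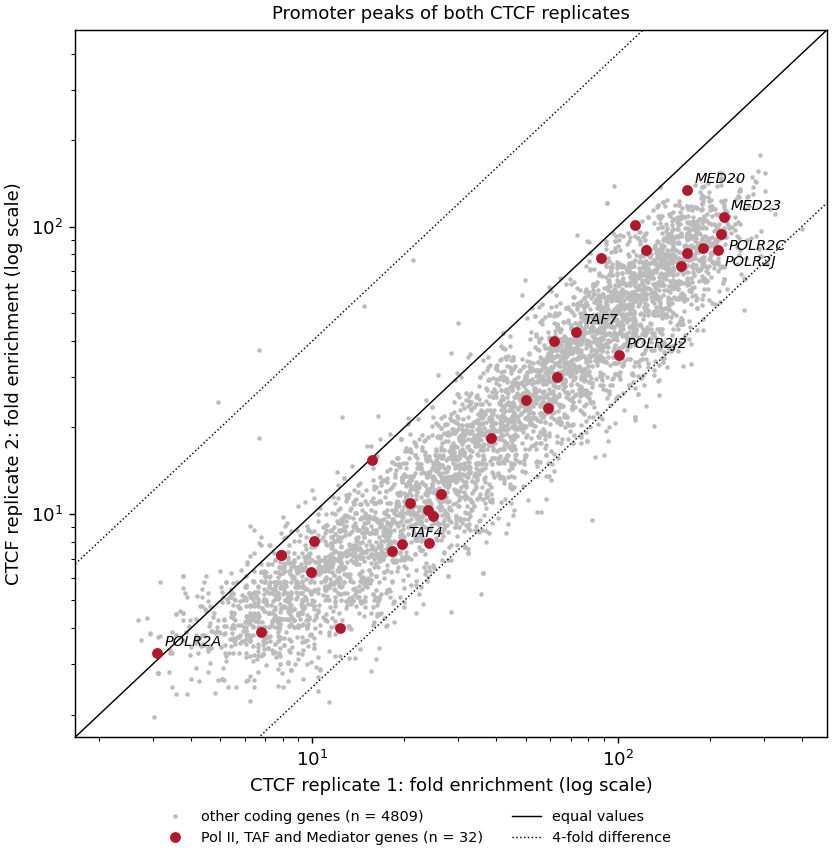
Fold enrichment in CTCF replicate 1 (horizontal, log scale) against replicate 2 (vertical, log scale) for coding genes with promoter peaks of both; red points are the 32 genes of the family and grey points all others. All red points but POLR2A lie below the line of equal values, and MED23, MED20, POLR2C and POLR2J lie at the upper right, with POLR2A at the lower left.

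The sequences under the replicate 1 CTCF summits of the first 4 genes are shown with the best match to the CTCF core in capitals, on either strand, 5′ to 3′ along the strand of the gene in hg38. They lie outside annotated UTRs at chr6:131628310-131628410 (minus) for MED23, chr6:41921398-41921498 (minus) for MED20, chr16:57462537-57462637 (plus) for POLR2C and chr7:102478939-102479039 (minus) for POLR2J.
MED23: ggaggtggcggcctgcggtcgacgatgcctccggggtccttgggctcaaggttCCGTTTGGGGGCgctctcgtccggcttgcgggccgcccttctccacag
MED20: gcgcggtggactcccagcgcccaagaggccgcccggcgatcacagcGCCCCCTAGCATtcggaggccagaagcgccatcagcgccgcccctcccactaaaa
POLR2C: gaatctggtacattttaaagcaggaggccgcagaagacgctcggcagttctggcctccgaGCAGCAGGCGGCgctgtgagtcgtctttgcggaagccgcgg
POLR2J: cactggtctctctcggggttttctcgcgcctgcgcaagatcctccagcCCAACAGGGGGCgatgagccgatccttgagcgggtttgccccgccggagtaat

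The best matches had 3 mismatches to the core at MED23 and MED20, 2 at POLR2C and 1 at POLR2J. The highest CTCF folds of the family thus stood at imperfect matches. Over the whole family, a core with at most 1 mismatch lay within 50 bp of the replicate 1 summit at 8 of 40 genes (20.0%, 10.5% to 34.8%), beside 34.0% of all coding genes with a promoter peak in that list. In replicate 2 it was 8 of 32 (25.0%, 13.3% to 42.1%), beside 39.5%. MED24 and MED13, also among the first 10 genes by CTCF fold, were among those with a complete core.

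Copies of POLR2J and GTF2H2 make part of these values uncertain. Over the promoter stretches compared, GTF2H2 and GTF2H2C had 99.5% of bases in common, POLR2J and POLR2J2 had 96.5% and POLR2J and POLR2J3 had 97.0%. Reads from such copies can be assigned to either, and how the authors' lists treated them is not stated. CTCF folds were 212 and 82.9 at POLR2J, 161 and 73.1 at POLR2J3 and 101.3 and 35.8 at POLR2J2. The order was the same in both replicates.

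The 30-base stretch around the CTCF core of the 3 copies is shown with the core in capitals. The sites lie on the minus strand of hg38 at chr7:102478971-102479000 for POLR2J, chr7:102572632-102572661 for POLR2J3 and chr7:102671712-102671741 for POLR2J2.
POLR2J: tcctccagcCCAACAGGGGGCgatgagccg
POLR2J3: tcctccagcCCAACAGGGGGCgatgagccg
POLR2J2: tcctccagcCCAACGGGGGGCgatgagccg

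Counted from 1 at the 5′ end of the core, POLR2J2 differed from POLR2J by A6G, which gave it 2 mismatches to the core in place of 1. POLR2J2 had the lowest CTCF fold of the 3 copies in each replicate. POLR2J and POLR2J3, whose printed stretches are identical, also differed, with 212 and 161 in CTCF replicate 1. Whether A6G affects the fold was not tested, since the copies also differ at other bases and may share reads. With antibody 1 the copies were nearly level, at 26.3, 29.2 and 25.5 for POLR2J, POLR2J3 and POLR2J2, and antibody 2 marked POLR2J3 (7.43) and POLR2J2 (7.15) but not POLR2J.

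CTCF replicate 1 alone marked 8 genes (9.41%), close to the 8.23% of all coding genes. They were MED25 (7.26), GTF2F1 (6.08), TAF13 (5.48), POLR2F (4.38), POLR2B (4.2), TAF3 (3.47), TAF9 (2.84) and TAF5 (2.36). All were below 8-fold in replicate 1. For Sp1, POLR2B had 6.47 and 4.85, TAF3 had 7.96 and 5.50, and GTF2F1 had 3.79 and 4.00, so these carried both antibodies. MED25 (3.92), POLR2F (4.67), TAF5 (6.35) and TAF9 (13.7) had antibody 1 only, and TAF13 antibody 2 only.

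Median folds of the family were close to those of all coding genes with a promoter peak. They were 8.16 beside 8.85 with antibody 1, 6.88 beside 7.02 with antibody 2, 24.0 beside 22.6 in CTCF replicate 1 and 20.8 beside 19.8 in replicate 2. The family was thus marked more often than other genes but not with higher typical folds.

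Sp1 summits of the family lay close to starts. The strongest summit was within 100 bp of a start at 44 of 60 genes with antibody 1 (73.3%, beside 57.3%), at 35 of 45 with antibody 2 (77.8%, beside 55.4%) and at 17 of 40 in CTCF replicate 1 (42.5%, beside 30.7%). The median position was −38 bp with antibody 1 and −31 bp with antibody 2, upstream being negative. CTCF summits were more dispersed, from −983 bp at GTF2I to 729 bp at MED15. The median number of annotated starts was 7 per gene in the family and 5 over all coding genes, and a gene with more starts has more chances of a near summit.

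**Figure D5:**
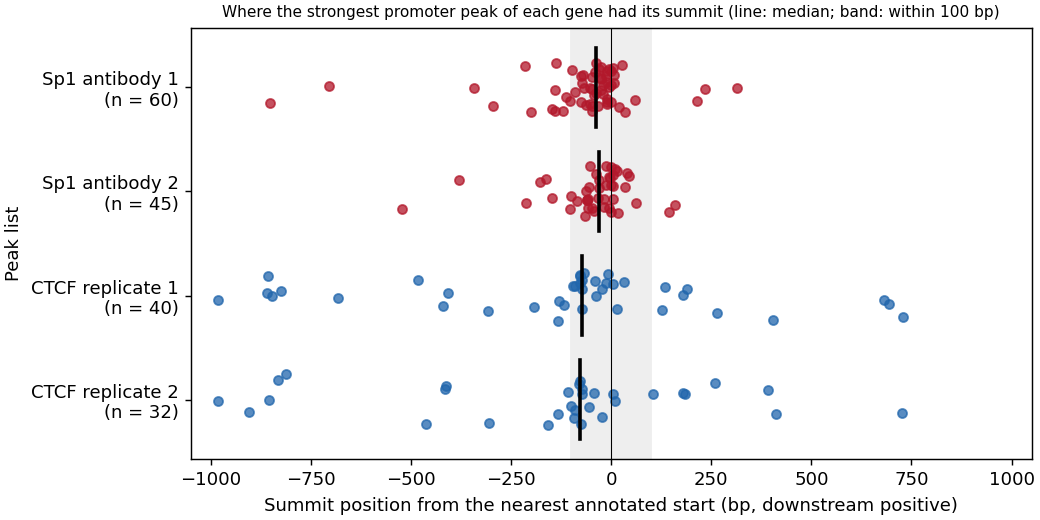
Position of the strongest promoter summit relative to the nearest annotated start in bp (horizontal axis, downstream positive) for the genes of the family in each list (rows); black lines are medians and the grey band covers 100 bp on each side. Sp1 points gather in the band, with 73.3% and 77.8% inside it, while CTCF points spread from −983 to 729 bp.

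Where both proteins marked a gene, their summits lay near each other at some genes. The strongest antibody 1 and CTCF replicate 1 summits were within 100 bp at 11 of 30 genes (36.7%), beside 15.9% of the 3167 coding genes with both. Their median distance was 216.5 bp, beside 474 bp. The 11 genes included the near-identical copies POLR2J, POLR2J2 and POLR2J3, and the copies GTF2H2 and GTF2H2C. TAF9 and POLR2F, with CTCF peaks in replicate 1 only, were also among them. The antibody summits were within 100 bp at 25 of 39 genes (64.1%, beside 64.5%), and the CTCF replicates at 30 of 32 (93.8%, beside 96.7%). Lists from different lines cannot show that the proteins occupied the same molecule.

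Long genes with many starts had peaks of different lists at different starts. At MED12, with 43 annotated starts, the antibody 1 summit (3.92) and the CTCF summits (61.7 and 40.1) belonged to different starts. At TAF1D the antibody summits lay 42638 bp apart, because the strongest antibody 2 peak was that of its divergent neighbour MED17. TAF1D and MED17 also shared 1 CTCF peak, with 7.91 and 7.19 for both genes. At MED13L the strongest peaks of the CTCF replicates stood 26590 bp apart.

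Motifs within 50 bp of Sp1 summits were searched on both strands. The GC box GGGCGG lay there at 31 of 60 genes with antibody 1 (51.7%, 39.3% to 63.8%), beside 56.6% of all genes with such a peak, and at 16 of 45 with antibody 2 (35.6%, 23.2% to 50.2%), beside 44.3%. The ETS core CCGGAA, bound by ETS family factors, lay there at 14 of 60 genes (23.3%, 14.4% to 35.4%), beside 14.4%, and at 20 of 45 (44.4%, 30.9% to 58.8%), beside 24.0%. GC box shares were thus close to the background, and the ETS core share with antibody 2 lay above it. The 20 genes included MED17 and TAF1D, which have the same antibody 2 summit. They also included the near-identical copies GTF2H2 and GTF2H2C, and POLR2J2 and POLR2J3. The interval counts each of these genes separately. Among the 5 genes with antibody 2 over 4-fold higher, 3 held the ETS core and 0 the GC box. The 3 were MED18 and the near-identical copies GTF2H2 and GTF2H2C. Among the 34 genes with a ratio of 4 or less, 16 (47.1%) held the ETS core and 16 the GC box. Over all coding genes the shares were 62.5% and 24.9% with antibody 2 over 4-fold higher. They were 20.0% and 49.2% with a ratio of 4 or less.

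At starts, the ETS core was counted without regard to summits. Within 50 bp of the canonical start it was present at 32 of 85 genes (37.6%, 28.1% to 48.3%), beside 12.3% of all coding genes and 16.3% of those with a CpG-rich promoter. The GC box was present at 32.9%, beside 35.8% and 48.4%. Of the 73 genes with a promoter peak in some list, 30 held the ETS core (41.1%, 30.5% to 52.6%), and of the 12 with none, 2 held it (16.7%, 4.7% to 44.8%). Antibody 2 marked 19 of the 32 genes with the ETS core (59.4%, 42.3% to 74.5%) and 26 of the 53 without it (49.1%, 36.1% to 62.1%), and these intervals overlapped. Over all coding genes it marked 47.0% with and 21% without the core. Genes that hold it included GTF2H1, GTF2H2, MED17, MED18, MED20, POLR2C, POLR2J, TAF1B, TAF1C and TAF12.

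The 12 genes without a promoter peak in any list were GTF2A1L, GTF2E2, GTF2F2, GTF2H5, MED21, MED28, POLR2L, POLR2M, TAF1L, TAF4B, TAF5L and TAF9B. Of these, 10 had a CpG-rich promoter, and GTF2A1L and TAF1L did not. GTF2A1L and TAF1L are paralogs best known from germ cells, whereas MED21, MED28, POLR2L, GTF2E2, GTF2F2 and GTF2H5 encode parts of the machinery used in all cells. The absence of a listed peak is not a measurement of zero, since the lists hold only peaks past the authors' threshold and give no depth.

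Genes of the same pathway outside the symbol rule, such as Mediator kinases, further TFIIH subunits and elongation factors, were counted from a list. Of 33 such genes, antibody 1 marked 25 (75.8%, 59.0% to 87.2%), beside 37.5% of all coding genes, and both antibodies marked 18 (54.5%, 38% to 70.2%), beside 21.2%. Both CTCF replicates marked 9 (27.3%, 15.1% to 44.2%), close to the 24.3% of all coding genes. The genes marked by both antibodies included the TFIIH subunit MNAT1 (10.3 and 143), whose ratio resembled those of GTF2H2 and MED23, and the kinase module cyclin CCNC (10.1 and 41.2). CDK8 and CDK19, the kinases of that module, had 13.3 and 6.00, and 7.62 and 7.13. Antibody 2 thus marked 3 of 3 kinase and cyclin genes (43.9% to 100.0%), beside 24.2% of all coding genes. It marked 0 of the 4 genes MED12, MED12L, MED13 and MED13L (0 to 49.0%), and these intervals overlapped. Antibody 1 marked 7 of 8 Pol I subunit genes (52.9% to 97.8%) and 7 of 10 Pol III subunit genes (39.7% to 89.2%), and both antibodies marked 4 of each. At these numbers the shares cannot be told from that of the 85 genes.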

How the data were processed

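Peak lists of 5 libraries were used: Sp1 antibodies 1 and 2, IgG and 2 CTCF replicates. The 3 input libraries were not analysed here. According to the submitters' processing notes, the authors used cutadapt 2.6, Bowtie2 2.4.5 and SAMtools 1.15.1 with hg38, and MACS2 2.2.7.1 for peaks. The study's methods give other Bowtie2 and samtools versions, and whether the control and threshold they describe apply to the deposited lists is not given in the sources used here. Each list belongs to a single library.

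Each deposited line holds a fold enrichment (a linear ratio over control made by the authors' caller), the −log10 p and −log10 q that the authors' caller computed, and the summit offset. A deposited score derived by the caller was not used. The lowest −log10 q was between 1.3 and 1.43. No read counts or depths were used, so no count test was possible.

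Summits were assigned to every transcript start within 1 kb in GENCODE 44, with pandas 2.3.3 and statsmodels 0.14.6. Assignment and motif search were tested on simulated data with planted peaks and motifs. The motifs were the GC box, TCGCGAGA, the ETS core and the CTCF core with at most 1 mismatch. POLR2J3 carries 2 gene identifiers and was counted once. Genes named with values were the first 10 by the sum of log2 fold over both Sp1 lists and over both CTCF lists, the 5 highest with either antibody alone, those in 1 CTCF replicate only, CRSP and Sp1 contact genes, POLR2A and TBP. Other genes, the MED1 window and the 30-base POLR2J sites were added after their values were seen. The genes, lists, motifs and comparisons were chosen with earlier results of these data known.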

Additional observations from a re-analysis of the deposited data

How the results depend on the processing

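Of 99 recomputed counts, medians and motif shares, 86 stayed within 1.5 times the reported count or median or inside the interval of the reported share. Counts were compared as totals, and the genes behind them could differ. Any antibody 1 and CTCF replicate 1 promoter summits lay within 100 bp at 13 genes (15.3%, beside 2.96%), counted as unchanged from 15. Only 6 of the 13 were among those 15. With canonical starts only, 21 genes (24.7%) had a peak in CTCF replicate 2 and the same number in both replicates, beside 16.2% and 15.6% of all coding genes. With all lists limited to the length of the shortest, 11 genes had a peak in CTCF replicate 1, in replicate 2 and in both, and 5 had all 4 Sp1 and CTCF peaks, since the CTCF lists are the longest. The background fell as well. The 11 genes (12.9%) stood beside 5.69%, 5.41% and 5.06% of all coding genes, and the 5 genes (5.88%) beside 1.37%. Without antibody 2 the count for Sp1 was 60 (70.6%, beside 37.5% of all coding genes). Within 100 bp of summits the GC box share was 68.3% with antibody 1 and 57.8% with antibody 2, and the ETS core share 45.0% and 60%, as a wider window holds more letters. A longer GC box, with a further G before and 2 after, gave 18.3% and 13.3%. Leaving out either CTCF replicate gave 32 to 40 genes for CTCF, beside 24.9% to 32.5% of all coding genes. For Sp1 with CTCF it gave 15 to 18, beside 6.91% to 8.99%. The lower counts could not change, since every replicate 2 gene of the family was also listed in replicate 1. With near-identical copies counted once, an alternative added after seeing the data, both antibodies marked 36 of 82 genes (43.9%), beside 21.2% of all coding genes. All 4 lists marked 12 (14.6%), beside 6.7%. Counts per complex with canonical starts, and backgrounds limited to CpG-rich or shared-start promoters, also added, are given with the counts. No paired analysis was possible because no result comes from a test, and replicate numbers were common only to CTCF and its inputs, which have no list here. Single Sp1 libraries and lists without depth limit every comparison.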

Other observations

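CTCF peaks also lay inside several of these genes, more than 1 kb from any start of the gene. Counting replicate 1 peaks that overlapped a replicate 2 peak, MED12L had 9 such peaks over its length of 352 kb, with the highest fold at 115. MED15 had 3, up to 215, and MED13L 3, up to 60.2. POLR2F also had 3, up to 89.4, and single peaks stood inside POLR2J3 (296), TAF6L (210), MED29 (150) and MED7 (128). POLR2J3, MED29, TAF6L and MED7 thus held CTCF peaks in the gene body above those of most promoters of the family, and TAF6L, MED29 and MED7 had no CTCF promoter peak. Of antibody 1 peaks that overlapped an antibody 2 peak, 1 lay inside these genes and away from starts, at MED16.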
